A study of Mus musculus with 10 samples.

Results

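The matrix metalloproteinases (MMPs), the ADAM and ADAMTS metalloproteinases and the tissue inhibitors of metalloproteinases (TIMPs) were followed in whole testes of mice at 10 days of age. The members were all probe sets that the platform annotation assigns to a single gene with a symbol of the form Mmp, Timp, Adam or Adamts and a number, which gave 83 probe sets of 54 genes among 12393 genes on the array. They comprised 18 MMP genes, 25 ADAM genes, 7 ADAMTS genes and 4 TIMP genes, and 1 further probe set was not used because it names Adam1a together with another gene. SCARKO mice lack the androgen response selectively in their Sertoli cells, the somatic cells of the seminiferous tubule, and the control mice carried the AMHCre transgene, in which the promoter of the anti-Müllerian hormone gene drives Cre recombinase in Sertoli cells. Each of the 10 Affymetrix arrays was hybridised with RNA from 1 testis of each of 3 littermates, with 5 SCARKO pools and 5 control pools that were made as littermate pairs. Mice without Cre were not analysed here.

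The groups, and the numbers that link the littermate pools, follow the sample titles. For pairs 1 to 4 the free-text description of each sample names the other genotype, and for pair 5 it names the one in the title. Signals had been scaled to the same trimmed mean on every array, with array medians from 36.4 to 37.6. Rhox5, an X-linked homeobox gene that marks androgen action in Sertoli cells, had a signal of 9.48 ± 1.91 in SCARKO pools and 178 ± 61.7 in control pools (mean ± SD, n = 5 each). The Sertoli cell genes Sox9 (168 ± 12.9 in SCARKO pools, 163 ± 16.1 in control pools) and Wt1, the steroidogenic Leydig cell gene Hsd3b1, the myoid gene Acta2 and the germ cell genes Dazl and Ddx4 all had signals above the dim limit used here, so the main cell types of an immature testis were represented. In such bulk samples, fewer cells of a type and less RNA per cell cannot be told apart.

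MMPs are zinc endopeptidases that cut collagens, laminins and other matrix proteins, and most are made as inactive precursors. ADAMs are mostly membrane-anchored relatives that release the outer parts of growth factors, adhesion molecules and receptors, and many members are made by germ cells and act in sperm maturation and fertilisation. ADAMTS enzymes are secreted and cut proteoglycans and procollagens, and TIMPs block these enzymes with different preferences. In the seminiferous tubule this system is known for its part in the turnover of the basement membrane and of the contacts between Sertoli and germ cells.

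The 5 genes with a probe set that passed the test were Timp2, Mmp14, Mmp23, Adam9 and Adam10, and their promoters are shown because these are the genes on which the comparison turns. RefSeq windows of 300 bases (250 before to 50 after the transcription start, build GRCm38.p6) were at hand for 4 of them and are printed 5′ to 3′. Capitals mark the hexamer TGTTCT or AGAACA, the core of the androgen response element, and the GC box, GGGCGG or CCGCCC, both searched on both strands. Mmp23 has 2 overlapping windows, of which the upstream window is shown.
Mmp23, chr4:155653335-155653634, minus strand: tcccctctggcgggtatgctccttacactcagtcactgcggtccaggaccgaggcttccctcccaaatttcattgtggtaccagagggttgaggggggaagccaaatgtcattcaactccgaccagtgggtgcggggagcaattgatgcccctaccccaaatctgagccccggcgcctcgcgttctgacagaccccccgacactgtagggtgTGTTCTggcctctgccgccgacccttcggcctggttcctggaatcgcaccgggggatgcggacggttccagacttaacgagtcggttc
Timp2, chr11:118355362-118355661, minus strand: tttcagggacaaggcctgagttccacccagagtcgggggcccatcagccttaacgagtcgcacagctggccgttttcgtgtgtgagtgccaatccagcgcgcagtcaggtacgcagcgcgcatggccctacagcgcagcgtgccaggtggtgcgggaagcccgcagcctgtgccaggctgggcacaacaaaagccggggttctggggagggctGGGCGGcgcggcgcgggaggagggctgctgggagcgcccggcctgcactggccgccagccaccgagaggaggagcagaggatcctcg
Mmp14, chr14:54431348-54431647, plus strand: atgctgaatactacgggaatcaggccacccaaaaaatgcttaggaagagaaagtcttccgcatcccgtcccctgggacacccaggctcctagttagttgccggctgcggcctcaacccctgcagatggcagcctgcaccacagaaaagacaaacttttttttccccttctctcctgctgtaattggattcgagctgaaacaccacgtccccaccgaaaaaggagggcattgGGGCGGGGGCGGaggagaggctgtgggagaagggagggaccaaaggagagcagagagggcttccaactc
Adam10, chr9:70678732-70679031, plus strand: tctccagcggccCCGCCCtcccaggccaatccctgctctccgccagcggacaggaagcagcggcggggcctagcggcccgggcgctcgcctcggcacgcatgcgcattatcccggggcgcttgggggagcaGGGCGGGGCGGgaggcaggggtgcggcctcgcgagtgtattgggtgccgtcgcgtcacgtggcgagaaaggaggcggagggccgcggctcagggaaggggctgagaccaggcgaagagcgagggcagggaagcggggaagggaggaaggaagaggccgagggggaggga
The hexamer was found in Mmp23, with its first base at position -38 from the upstream start, and not in these windows of Timp2, Mmp14 or Adam10. It is present in 19.0% of all 32851 windows of this length. GC boxes numbered 3 in Adam10 (a pair of them sharing a base), 2 in Mmp14 and 1 in Timp2, and none lay in the window of Mmp23 shown, while the overlapping downstream window of Mmp23 held 2. A GC box is present in 35.7% of all windows, and the TATA box (TATAAA or TTTATA), present in 13.6%, was found in none of the windows of these 4 genes. The nearer reference is the 6518 genes with a window and a tested probe set. Counted per gene, 72.4% of them had a GC box, 8.36% a TATA box and 14.4% the hexamer.

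Of the 83 probe sets, 34 probe sets of 17 genes lay above the dim limit, a mean log2 signal of 4.27 over the 10 arrays or a signal of 19.3, and only these were tested. The other 37 genes had no probe set above it. Among them was Timp4, the TIMP of heart and other restricted tissues, whose brighter probe set ranged from 1.4 to 7.8 in SCARKO pools and from 1.3 to 4.8 in control pools. The plot of signals by gene shows the split. Signals of different probe sets depend on their probes, so the order of genes by signal is not an order of transcript levels.

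**Figure D1:**
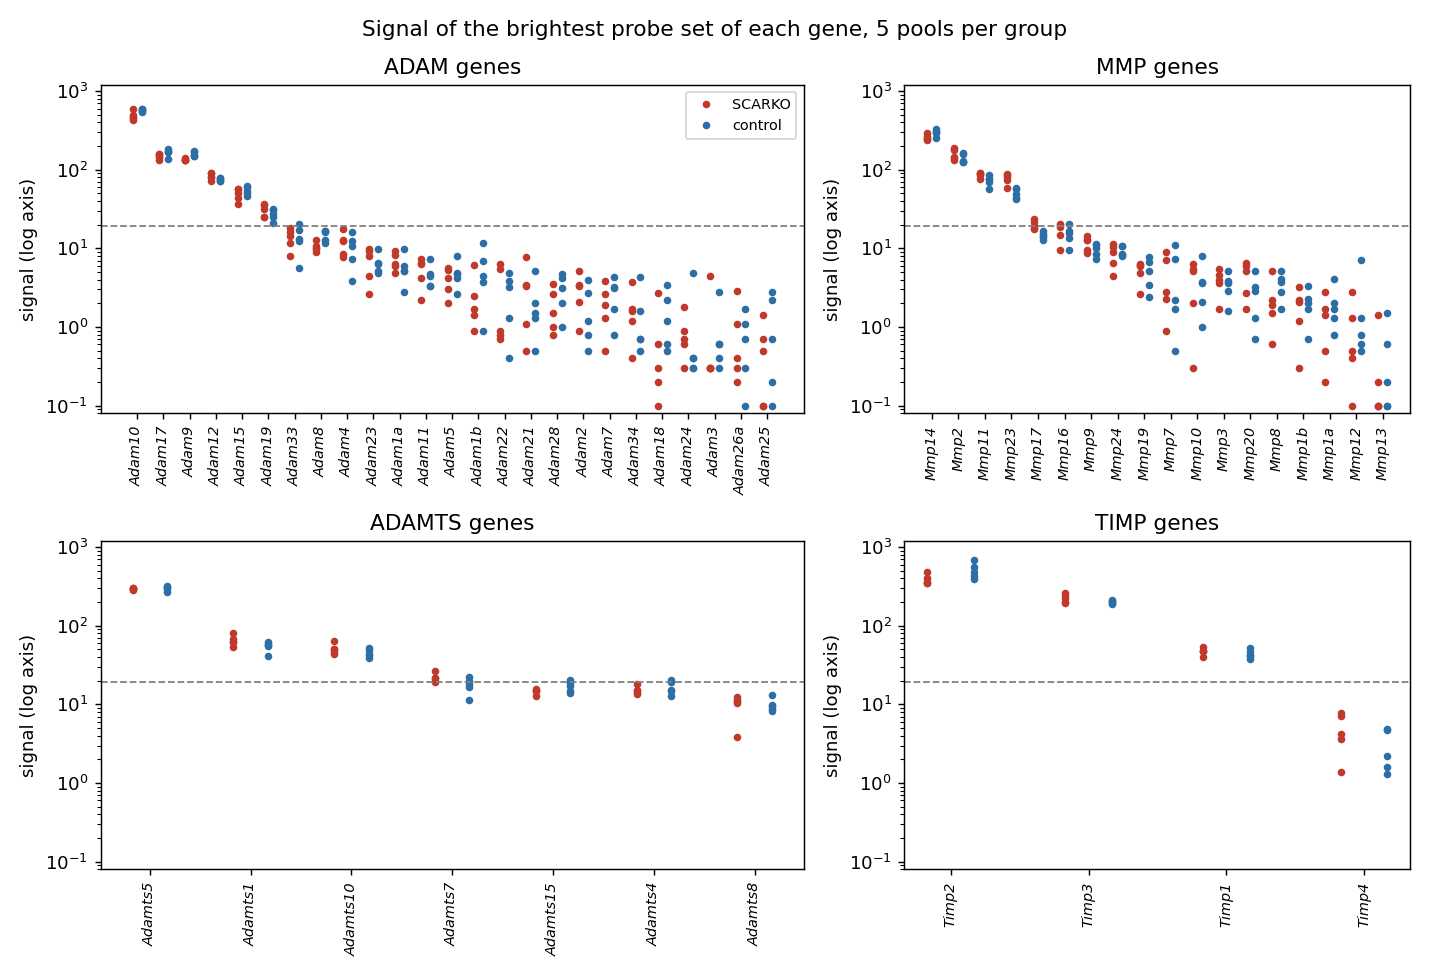
Signal of the brightest probe set of each of the 54 genes on a log axis, by family, with each point a pool (SCARKO left in red, control right in blue, 5 each) and the dashed line at the dim limit of 19.3. Values under 0.1 are drawn at 0.1. Genes are laid out by signal in each panel, which is not an order of transcript levels. The 17 tested genes stand leftmost, and sperm ADAMs such as Adam2 lie under the line in both groups.

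Limma called 9 of the 34 tested probe sets at an adjusted p under 0.05, 7 lower and 2 higher in SCARKO, against 5.19% of all 13576 tested probe sets (3.26% lower and 1.93% higher). Timp2 alone supplied 4 of the 9, so they are not 9 separate genes. With each gene represented by its brightest tested probe set, 3 of 17 genes passed (Timp2, Mmp23 and Adam9), against 5.69% of 7973 genes. The median log2 fold change, SCARKO minus control, was 0.01 over the 34 probe sets and 0.01 over all tested probe sets. Over genes it was 0.13 for the 17 members and 0.02 for all genes. The same direction in all 5 pairs was seen for 15 of the 34 probe sets, against 18.5% of all tested probe sets. Signals of the 2 groups did not overlap for 3 of the 34 (1 each of Timp2, Mmp23 and Adam9), against 4.52% of all. Without the filter on dim probe sets, none of the 9 passed by limma (adjusted p from 0.0543 to 0.17). In that fit 22 of all 83 had an unadjusted p under 0.05 by limma, against 3339 of all 22626 probe sets.

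Timp2 was the inhibitor gene that changed. TIMP2 inhibits many MMPs and also bridges MMP14 to the precursor of MMP2 on the cell surface, a step in MMP2 activation. Timp2 (gene ID 21858, chromosome 11) had 6 probe sets, of which 5 were above the dim limit, and all 5 had a negative log2 fold change, with 4 called. Probe set 1460287_at had signals of 308.3, 280.6, 312.6, 267.7 and 259.7 in SCARKO pools 1 to 5, against 360.0, 341.9, 445.6, 358.6 and 380.7 in control pools 1 to 5. Every SCARKO pool was lower than every control pool, and the fall held in each pair. The log2 fold change was -0.40 (SE 0.06, adjusted p = 0.0028 by limma), which is 1.32-fold lower in SCARKO. This call held in each fit that left out 1 pair (adjusted p at most 0.018) and was lost without the filter on dim probe sets (0.074).

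The other 3 called Timp2 probe sets fell by similar amounts with more spread. The brightest, 1454677_at, had signals of 404.5, 350.5, 365.8, 351.7 and 488.7 in SCARKO pools, against 435.5, 391.4, 482.3, 556.6 and 685.6 in control pools. Here the groups overlapped, with SCARKO pool 5 above control pools 1, 2 and 3 and SCARKO pool 1 above control pool 2, while each pair showed the fall (log2 fold change -0.36, SE 0.07, adjusted p = 0.015). Probe set 1450040_at ranged from 90.3 to 140.9 in SCARKO pools and from 133.3 to 158.8 in control pools (log2 fold change -0.42, SE 0.09, adjusted p = 0.017), with pair 1 level at 140.9 in SCARKO and 139.4 in control. Probe set 1433662_s_at averaged 288 ± 21.5 in SCARKO pools and 355 ± 39.0 in control pools (SD, n = 5) and fell by 0.30 on the log2 scale (adjusted p = 0.023). The fifth, 1420924_at, averaged 123 ± 20.1 and 155 ± 16.6 in the same order and did not pass (log2 fold change -0.33, adjusted p = 0.059). Pair 1 had the smallest Timp2 fall, or none, in 4 of the 5 tested probe sets. The calls of 1454677_at, 1450040_at and 1433662_s_at each ended in 2 to 4 of the fits that left out 1 pair, at adjusted p from 0.060 to 0.089, and without pairs as a block those of 1454677_at (0.18) and 1433662_s_at (0.061) ended. The sixth Timp2 probe set, 1437081_at, was dim in every pool, with values from 0.2 to 3.0.

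The other TIMP genes did not pass. Timp1, an X-linked inhibitor of most secreted MMPs, had signals of 47.7, 48.5, 40.5, 53.4 and 47.5 in SCARKO pools, against 51.7, 46.6, 41.9, 42.8 and 37.5 in control pools, and its log2 fold change (0.11, SE 0.10) did not pass (adjusted p = 0.56). The groups overlapped and the pairs went both ways. Timp3, the matrix-bound inhibitor that also blocks ADAM17, had 4 tested probe sets. Its brightest, 1449335_at, had 259.7, 200.9, 223.0, 195.4 and 237.3 in SCARKO pools, against 212.2, 198.0, 188.8, 195.1 and 209.8 in control pools (log2 fold change 0.15, SE 0.06, adjusted p = 0.18). This probe set was higher in SCARKO in each pair, by little in pairs 2 and 4. The other 3 had log2 fold changes from -0.01 (SE 0.08) to 0.11, so the Timp3 probe sets did not share a sign.

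Mmp14 had lower signals in SCARKO and Mmp2 had higher ones, but these rested on thin margins. MMP14 is a membrane-anchored collagenase (MT1-MMP) that activates the precursor of MMP2, and MMP2, gelatinase A, cuts type IV collagen of basement membranes. Mmp14 (gene ID 17387, chromosome 14) was called by 1416572_at, with signals of 147.4, 135.5, 138.3, 125.1 and 153.3 in SCARKO pools, against 177.8, 135.4, 175.9, 167.0 and 188.8 in control pools. Pair 2 showed no difference, and the other 4 pairs fell (log2 fold change -0.27, SE 0.07, adjusted p = 0.043). Its brighter probe set 1448383_at had 265.8, 248.1, 237.9, 253.5 and 290.0 in SCARKO pools, against 333.4, 252.5, 300.0, 297.4 and 306.8 in control pools, lower in each pair and not past the threshold (log2 fold change -0.20, SE 0.06, adjusted p = 0.073). Leaving out pair 2, whose control pool was the lowest for both probe sets, both passed (adjusted p = 0.011 and 0.040). The call of 1416572_at was lost on leaving out pair 1, 3, 4 or 5, at an adjusted p from 0.11 to 0.15, and without pairs as a block (0.14).

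Mmp2 (gene ID 17390, chromosome 8) was higher in SCARKO in each of the 5 pairs by both probe sets, and neither passed. Probe set 1416136_at had 188.8, 135.0, 141.4, 145.4 and 180.1 in SCARKO pools, against 165.4, 124.0, 127.3, 131.1 and 157.6 in control pools. Pools 1 and 5 were the brightest in both groups, so the groups overlapped although the pairs did not differ in direction. Its log2 fold change was 0.16 (SE 0.05, adjusted p = 0.11), and that of 1439364_a_at was 0.22 (SE 0.07, adjusted p = 0.086).

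Mmp23 had the largest change among the 17 tested genes by the brightest probe set, and it was a rise. MMP23 is an atypical membrane-bound MMP without the hemopexin domain of most family members, and in human it is known from reproductive tissues. Probe set 1417281_a_at (gene ID 26561, chromosome 4) had signals of 65.0, 54.0, 56.6, 58.1 and 58.4 in SCARKO pools, against 39.5, 36.3, 43.3, 38.2 and 34.8 in control pools. Every SCARKO pool was above every control pool. The log2 fold change was 0.61 (SE 0.09, adjusted p = 0.0030), which is 1.52-fold higher in SCARKO, and the call held in each fit that left out 1 pair (adjusted p at most 0.018) and without pairs as a block (0.0022). It was lost when dim probe sets were not filtered (0.058). With the lowest 60% left out it was not tested.

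Probe set 1417282_at of Mmp23 gave the same size of change with wider spread. Its signals were 80.6, 59.2, 86.3, 87.4 and 73.1 in SCARKO pools, against 59.4, 57.0, 42.8, 43.9 and 48.8 in control pools. The rise was small in pair 2 and largest in pairs 3 and 4, and the groups overlapped by the SCARKO pool of pair 2 and the control pool of pair 1. The log2 fold change was 0.62 (SE 0.13, adjusted p = 0.018), and the call ended without pair 3, 4 or 5 (adjusted p = 0.054 to 0.080).

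Mmp11, the other tested MMP gene, encodes stromelysin 3, a secreted enzyme activated inside the cell by furin. It had 90.9, 86.1, 87.7, 76.3 and 89.7 in SCARKO pools, against 86.2, 70.7, 75.8, 57.5 and 77.3 in control pools. It was higher in each pair, with overlap between the groups, and did not pass (log2 fold change 0.24, SE 0.07, adjusted p = 0.084). In all, 3 of 7 tested MMP probe sets were called, 2 higher (both Mmp23) and 1 lower (Mmp14).

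**Figure D2:**
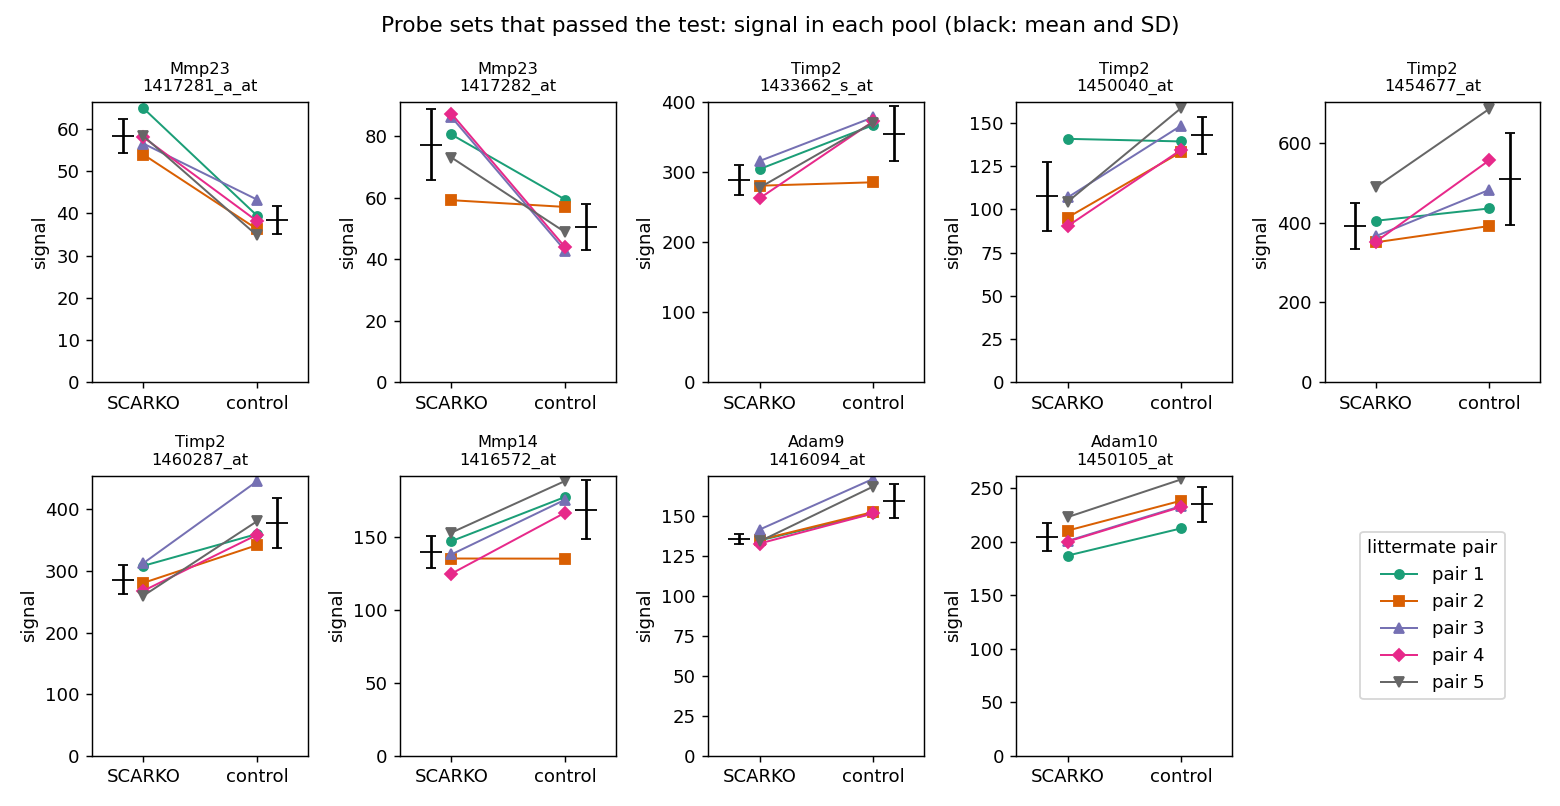
Signal (vertical axes from 0) of the 9 called probe sets in each pool, SCARKO left and control right, with lines joining littermate pools and black marks for mean and SD (n = 5 each). Lines fall from left to right for both Mmp23 probe sets and climb for most pairs of Timp2, Mmp14, Adam9 and Adam10, with pair 2 nearly level for Mmp14 and for 1433662_s_at of Timp2.

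Among the ADAMs, Adam9 and Adam10 fell slightly. ADAM9 is a widely expressed membrane protease, and ADAM10 is the main enzyme that releases the outer parts of Notch receptors and cadherins. Adam9 (gene ID 11502, chromosome 8) had 134.4, 134.8, 141.2, 132.5 and 133.8 in SCARKO pools, against 151.4, 152.2, 172.9, 151.3 and 168.1 in control pools. The groups did not overlap and SCARKO pools differed little among themselves (log2 fold change -0.23, SE 0.06, adjusted p = 0.037), a value that is 1.17-fold lower in SCARKO. Adam10 (gene ID 11487, chromosome 9) was called by 1450105_at, with 187.2, 210.6, 200.9, 200.3 and 223.2 in SCARKO pools, against 212.7, 238.6, 233.6, 232.8 and 258.5 in control pools. The 5 pair differences were nearly equal, from -0.22 to -0.18 on the log2 scale, although the groups overlapped (log2 fold change -0.20, SE 0.05, adjusted p = 0.032).

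The remaining Adam10 probe sets had the same direction without passing. The brightest, 1428103_at, averaged 490 ± 61.8 in SCARKO pools and 571 ± 24.7 in control pools (SD, n = 5) at an adjusted p of 0.057 (log2 fold change -0.23), with pair 4 in the other direction at 590.9 against 553.5. It passed without pair 4 (adjusted p = 0.0078). Probe set 1450104_at had a log2 fold change of -0.20 (adjusted p = 0.12). The calls of Adam9 and of 1450105_at of Adam10 each ended when any 1 of the 5 pairs was left out, at adjusted p from 0.0502 to 0.14 for Adam9 and from 0.0503 to 0.11 for Adam10, and without pairs as a block (0.0542 and 0.13).

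Adam17, Adam12, Adam15 and Adam19 did not pass. Adam17 encodes the enzyme that releases TNF and ligands of the EGF receptor. Its brightest probe set, 1421858_at, had 157.3, 147.2, 133.9, 149.9 and 160.4 in SCARKO pools, against 167.8, 136.7, 181.4, 173.2 and 170.3 in control pools (log2 fold change -0.14, SE 0.07, adjusted p = 0.30). Its 3 probe sets had log2 fold changes from -0.19 to -0.05, all negative. Adam12, a mesenchymal ADAM, averaged 83.0 ± 7.60 in SCARKO pools and 75.6 ± 3.00 in control pools (log2 fold change 0.13, adjusted p = 0.39). Adam19 averaged 30.9 ± 5.59 and 27.1 ± 4.34 in the same order and was higher in each pair (log2 fold change 0.19, adjusted p = 0.37). The probe sets of Adam15 disagreed in sign, at -0.17 for 1438760_x_at and 0.07 for 1454206_a_at.

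None of the 5 tested ADAMTS probe sets was called by limma, with 1 at an unadjusted p under 0.05, against 2833 of all 13576 tested. Adamts1, which cuts the proteoglycans versican and aggrecan, had 68.6, 80.5, 61.7, 54.3 and 62.5 in SCARKO pools, against 57.2, 59.0, 41.8, 55.2 and 62.2 in control pools. Pairs 1 to 3 were higher in SCARKO and pairs 4 and 5 were level (log2 fold change 0.25, SE 0.10, adjusted p = 0.18). Adamts10, which acts on fibrillin microfibrils, was higher in each pair, at 51.3 ± 7.72 in SCARKO pools and 45.3 ± 4.99 in control pools (SD, n = 5), and did not pass (log2 fold change 0.18, adjusted p = 0.27). Adamts5, an aggrecanase, averaged 295 ± 7.15 in SCARKO pools and 302 ± 19.7 in control pools, with log2 fold changes of -0.03 and 0.06 for its 2 probe sets. Adamts7 lay close to the dim limit, at 21.8 ± 2.87 in SCARKO pools and 17.7 ± 4.13 in control pools (log2 fold change 0.33, SE 0.19, adjusted p = 0.35).

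**Figure D3:**
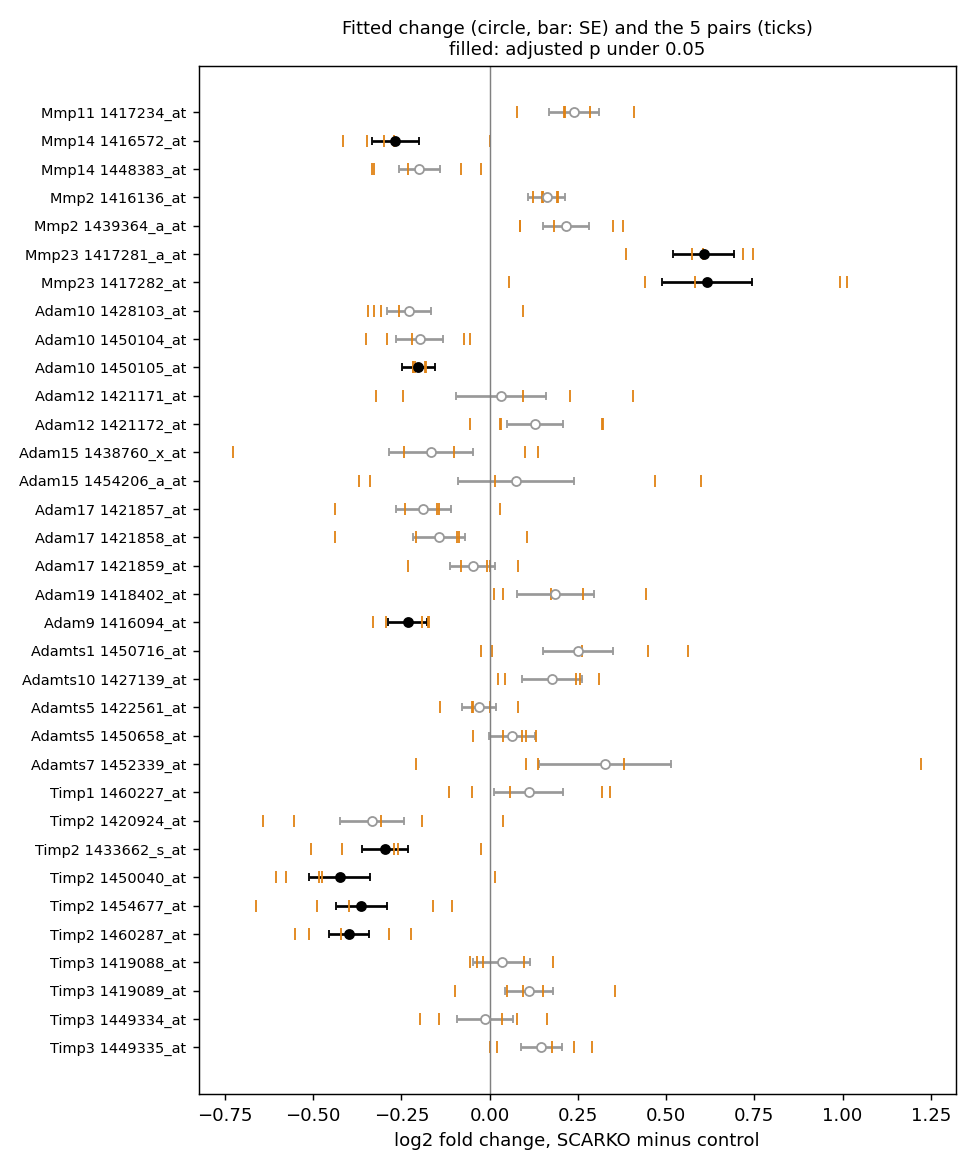
Log2 fold change, SCARKO minus control, of the 34 tested probe sets (circle with SE bar, filled where the adjusted p was under 0.05), with orange ticks for the 5 pairs. The 5 Timp2 probe sets lie between -0.42 and -0.30 and both Mmp23 probe sets near 0.61, while the Timp3 probe sets lie on either side of 0.

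The 37 untested genes were mostly far under the dim limit. For 32 of them no pool reached a signal of 19.3 with the brightest probe set, and for 24 the mean over the 10 arrays was under 5. They include the sperm and spermatid ADAMs, namely both subunits of fertilin (Adam1a, Adam1b and Adam2), cyritestin (Adam3), and the testis ADAMs Adam4, Adam5, Adam18, Adam21, Adam24, Adam25, Adam26a and Adam34, whose expression is known from later germ cells than those of a testis at this age. Adam2 ranged from 0.9 to 5.2 in SCARKO pools and from 0.5 to 4.0 in control pools. The epididymal gene Adam7 had values from 0.5 to 3.9 in SCARKO pools and from 0.8 to 4.3 in control pools. The collagenase, stromelysin and matrilysin genes Mmp1a, Mmp1b, Mmp8, Mmp13, Mmp3, Mmp10 and Mmp7 were dim, and Mmp13 did not exceed 1.4 in SCARKO pools or 1.5 in control pools. Mmp9, which encodes gelatinase B, averaged 11.7 ± 2.39 in SCARKO pools and 9.72 ± 1.74 in control pools by its brighter probe set.

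Among the 49 dim probe sets, groups did not overlap for 1, which belonged to Mmp17, against 4.52% of all tested probe sets. The share over all dim probe sets was not computed. Mmp17, Adam8 and Mmp19 were singled out after their values were seen. MMP17 is a membrane MMP held by a lipid anchor. Mmp17 had 18.4, 23.4, 21.5, 19.1 and 17.6 in SCARKO pools, against 14.4, 15.4, 14.0, 12.6 and 16.7 in control pools. When probe sets were not filtered, its log2 fold change was 0.45 (adjusted p = 0.21 by limma). Adam8, an ADAM of myeloid cells, had lower values in SCARKO in each pair, at 10.5 ± 1.49 in SCARKO pools and 14.7 ± 2.22 in control pools (SD, n = 5; log2 fold change -0.49 and adjusted p = 0.22 without the filter). Probe set 1421977_at of Mmp19 was also lower in each pair, at 2.70 ± 0.82 in SCARKO pools and 4.42 ± 1.08 in control pools. Its log2 fold change without the filter was -0.73 (adjusted p = 0.22 by limma), while that of the brighter Mmp19 probe set was 0.08. Without the filter limma called 0 of the 49, with 3 at an unadjusted p under 0.05, which were these probe sets of Mmp17, Adam8 and Mmp19. Over all 22626 probe sets of that fit, 3339 had an unadjusted p under 0.05 by limma, a larger share than 3 of 49.

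The split between tested and dim members was also seen in their promoter windows, a feature that did not enter the choice of members. RefSeq windows were at hand for 30 of the 54 genes. A GC box was present for 11 of 11 tested genes and for 2 of 19 untested genes. Over all genes on the array with a window, it was present for 72.4% of the 6518 genes with a tested probe set and 39.0% of the 3365 genes without. A TATA box was present for 1 of 11 tested and 9 of 19 untested members, and for 8.36% and 18.8% of the array's genes in the same order. The hexamer TGTTCT or AGAACA was not particular to Mmp23. It was present for 2 of 11 tested and 6 of 19 untested members, and for 14.4% and 20.8% of the array's genes. These are descriptions of short letter matches.

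Related genes were drawn from 5 lists of activators, partners, other metalloproteinases, shed proteins and matrix substrates, in which 45 genes were above the dim limit. Of these, 4 fell and 5 rose, against 3.52% lower and 2.17% higher of all 7973 genes, and the median log2 fold change was 0.06, against 0.02 for all genes. Among activators of the precursors and the plasminogen system, 1 of 5 genes fell and none rose (median -0.06). It was Plat, which encodes tissue plasminogen activator, with 119.5, 139.4, 146.9, 115.4 and 109.5 in SCARKO pools, against 197.9, 188.7, 248.0, 207.9 and 223.3 in control pools. The groups did not overlap (log2 fold change -0.76, SE 0.08, adjusted p = 0.00041). The proprotein convertase genes Furin (-0.06), Pcsk5 (0.19), Pcsk6 (0.06) and Pcsk7 (-0.08) did not pass, and plasminogen (Plg) and urokinase (Plau) were dim.

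Among 8 inhibitors, inducers and partners, 0 passed by limma and 2 had an unadjusted p under 0.05 (median 0.05). An unadjusted p under 0.05 by limma was seen for 2833 of all 13576 tested probe sets. Reck, a membrane-anchored inhibitor of MMP14, MMP2 and ADAM10, had 186.5, 168.5, 196.3, 166.2 and 169.1 in SCARKO pools, against 202.8, 206.3, 215.5, 185.5 and 204.7 in control pools. It was lower in each pair and did not pass (log2 fold change -0.20, SE 0.05, adjusted p = 0.058). Tspan15, a tetraspanin that guides ADAM10, was higher in each pair and did not pass (log2 fold change 0.29, adjusted p = 0.12). Bsg, the MMP inducer basigin, had a log2 fold change of -0.04 (adjusted p = 0.71).

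Of 5 other metalloproteinase genes, Pappa rose and 4 did not pass (median 0.16). Pappa, which encodes pappalysin, a protease of IGF-binding proteins, averaged 44.5 ± 4.06 in SCARKO pools and 33.3 ± 2.97 in control pools (SD, n = 5), a log2 fold change of 0.42 with an adjusted p of 0.024. The call ended without pair 1, 2, 4 or 5 (adjusted p = 0.055 to 0.079). The neprilysin gene Mme had a log2 fold change of 0.15 (adjusted p = 0.23).

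Among 14 genes of proteins released by ADAM10 or ADAM17, 3 fell and 2 rose (median -0.03). Notch1 had 38.3, 45.1, 41.7, 58.3 and 37.0 in SCARKO pools, against 92.2, 54.8, 93.6, 91.0 and 84.5 in control pools (log2 fold change -0.91, adjusted p = 0.0034 by limma, SE 0.13). The SCARKO pool of pair 4 was above the control pool of pair 2, the 1 point of overlap. Cdh2, which encodes N-cadherin, averaged 152 ± 16.9 in SCARKO pools and 217 ± 32.1 in control pools (log2 fold change -0.50, adjusted p = 0.0079). The TNF receptor gene Tnfrsf1a fell by 0.31 on the log2 scale (adjusted p = 0.023). The EGF receptor ligand gene Tgfa rose, at 28.2 ± 1.13 in SCARKO pools and 19.5 ± 2.58 in control pools (log2 fold change 0.54, adjusted p = 0.026), and so did Kitl, the stem cell factor gene, by 0.24 (adjusted p = 0.015). Leaving out pair 1, 3, 4 or 5 ended the calls of Tnfrsf1a and Tgfa, at an adjusted p from 0.063 to 0.11. Leaving out pair 1 or 3 ended that of Kitl (0.0517 and 0.070).

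Of 13 matrix substrate genes, 2 rose and none fell (median 0.10). Bcan, the gene of the proteoglycan brevican that ADAMTS enzymes cut in brain, averaged 101 ± 14.2 in SCARKO pools and 59.0 ± 11.1 in control pools (SD, n = 5) and rose by 0.78 on the log2 scale (adjusted p = 0.0019). Lamb1, a laminin gene, rose by 0.23 (adjusted p = 0.025), a call that ended without pair 1, 3 or 5 (0.086 to 0.12) and without pairs as a block (0.11). Col4a1 and Col4a2, which encode type IV collagen, had log2 fold changes of 0.15 and 0.14 (adjusted p = 0.073 and 0.27), and Col1a1, Col1a2 and Col3a1 lay between -0.04 and -0.01.

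**Figure D4:**
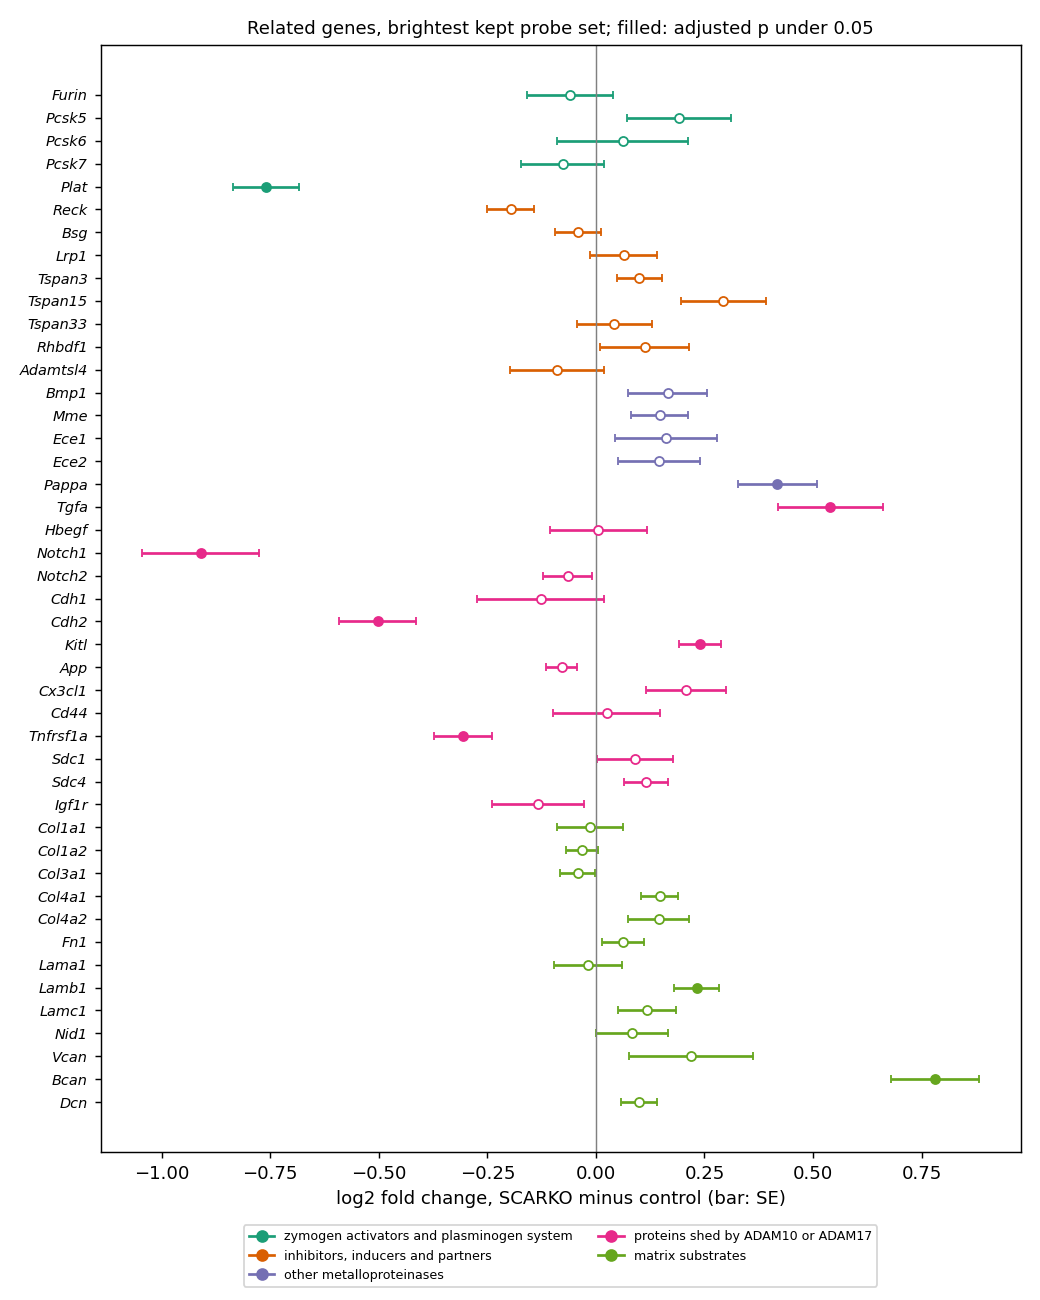
Log2 fold change, SCARKO minus control, with SE bars for the 45 related genes above the dim limit, coloured by list and filled where the adjusted p was under 0.05. Plat, Notch1 and Cdh2 lie furthest left and Bcan, Tgfa and Pappa furthest right, and the other metalloproteinase genes all lie right of 0.

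Markers of testicular cell types were set beside these results. The summed signal of 13 Sertoli markers was 4917.2 to 5261.9 in SCARKO pools and 5461.0 to 6245.4 in control pools, with 5 members lower and 1 higher. The 5 were Rhox5, the marker of androgen action given above, Eppin (42.2 ± 8.68 in SCARKO pools, 342 ± 86.6 in control pools), Tubb3 (log2 fold change -1.23), Cldn11 (-0.68) and Gata1 (-0.50). Fshr was the 1 that rose (log2 fold change 0.42), and the other 7 did not pass. Amh had the largest change of these 7, at 17.5 ± 2.71 in SCARKO pools and 30.1 ± 11.4 in control pools. It was lower in each pair (log2 fold change -0.71, adjusted p = 0.065 by limma). The others were Sox9 (0.05), Inha (0.06), Gata4 (0.26), Wt1 (-0.09), Clu (-0.05) and Dhh (-0.06). Within the Sertoli sum, the largest differences in mean signal were those of Eppin, Cldn11 (328 in SCARKO pools, 527 in control pools) and Rhox5. These genes are among those called lower, so the gap between the sums is not a measure of Sertoli cell content. A difference in that content was not tested. The summed signal of 7 meiotic prophase markers was 1467.3 to 1910.0 in SCARKO pools and 1712.7 to 2590.4 in control pools. These ranges overlapped, and 3 markers were lower (Stag3, Hspa2 and Tex15). The 7 myoid markers summed to 2547.2 to 2972.3 in SCARKO pools and 2879.5 to 3263.3 in control pools, which also overlapped. Limma called 0 of them, with 2 at an unadjusted p under 0.05. Limma called 0 of 6 Leydig, 8 macrophage, 6 endothelial and 8 spermatogonial markers, with 1, 2, 1 and 2 at an unadjusted p under 0.05, and the ranges of their sums overlapped between the groups. Over all 13576 tested probe sets, 2833 had an unadjusted p under 0.05 by limma. No tested marker was listed at 0, and the epididymal genes Lcn5 and Defb1 were dim. The part of any of these marker sets in the changes of Timp2, Mmp14, Mmp23, Adam9 and Adam10 was not tested.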

How the data were processed

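RNA of 10 pools was measured on Affymetrix arrays, 5 SCARKO and 5 control. The authors deposited 1 linear signal intensity for each of 22690 probe sets. Per the submitters' processing notes, 8 arrays were processed with MAS5, and for pair 5 the notes name no tool. After trimming 2% of values at each end, all arrays had the same mean. Precision is limited by having 5 arrays per group.

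Probe sets took their symbols from the platform annotation, brought up to GRCm38.p6 by gene identifier. Signals under 1 were set to 1, log2 was taken, and after setting aside 64 array controls, the dimmest 40% by mean log2 were dropped, which kept 13576. The model, fitted in limma 3.58.1 (R 4.3.3), had group as its effect, pair as a block and an intensity trend. Its two-sided p-values were adjusted by Benjamini-Hochberg over everything kept, with a threshold of 0.05. Log2 fold changes are SCARKO minus control. The fit was tested on simulated data. The protocols state that pools of littermates were paired. Deviations of same-numbered pools from their group means correlated at 0.27, 0.19, 0.19, 0.11 and 0.39 for pairs 1 to 5. The highest correlations with a differently numbered pool of the other group were -0.01, 0.08, 0.11, 0.11 and 0.01. Pair 4 thus did not stand apart by this measure.

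Counts over genes use the brightest kept probe set of each. Genes were named by a rule: all TIMPs, every gene with a called probe set, in each other family the 4 with the smallest p and the 3 with the highest control signal, genes whose probe sets differ in sign, and of the related lists the called genes and the 2 with the smallest p. Members outside it (dim genes, Adam12 and some related genes) were named to complete their groups. The members, the 5 related lists and the 8 marker lists (Sertoli, Leydig, myoid, macrophage, endothelial, spermatogonial, meiotic and epididymal) were chosen with earlier results of these data known. Alternatives were the fit without pairs, 16 added before log2, other filters, quantile normalization, no intensity trend, each pair left out, and groups from the descriptions. Promoters are from RefSeq. The targeted gene is not reported here.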

Additional observations from a re-analysis of the deposited data

Results flagged for a closer look

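Of 68 groups of 5 pools examined over the 34 tested probe sets, 4 held a pool far from the others (a gap to the nearest pool above 0.71 of the group's range on the log2 scale), and chance flags about 1 in 20 groups. Control pool 2 of Timp2 probe set 1433662_s_at lay at 285.6, against 367.4 to 378.6 in the other control pools, and without pair 2 the log2 fold change of that probe set was -0.36 (adjusted p = 0.0050). Control pool 2 of Adam17 probe set 1421858_at lay at 136.7, against 167.8 to 181.4 in the others. SCARKO pool 3 of Adam9 lay at 141.2, against 132.5 to 134.8 in the other SCARKO pools. Control pool 4 of Adamts5 probe set 1450658_at lay at 92.1, against 74.0 to 78.5 in the others.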

How the results depend on the processing

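Signs of the log2 fold changes of 23 member probe sets (the brightest of each gene and those called) were kept in each alternative in which they were tested except groups from the descriptions, and the number of calls varied. Against 9 called member probe sets, 704 called over all probe sets and 9 related genes, the fit without pairs as a block called 4, 404 and 8, and the fit without an intensity trend 2, 321 and 6. With no filter on dim probe sets limma called 0 of 83 members, 38 of all 22626 and 0 related genes, with 22, 3339 and 15 at an unadjusted p under 0.05. The cause was not tested. With 1 pair left out the calls ranged from 2 (without pair 3 or 5) to 8 for members, the others being 6 without pair 1 and 4 without pair 4, from 304 to 744 over all, and from 4 to 8 for related genes. Among the 9, 2 were called in each of these 5 fits, 1 probe set each of Mmp23 and Timp2. With 16 added before log2 or quantile normalization, the same 9 were called. With the lowest 60% left out, 7 were called and both Mmp23 probe sets were not tested.

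With groups from the descriptions limma called 0 members, 0 of all probe sets and 0 related genes, with 3, 611 and 0 at an unadjusted p under 0.05, and 22 of the 23 log2 fold changes turned sign: Adam10 0.13 and 0.12, Adam12 -0.12, Adam15 0.22, Adam17 0.11, Adam19 -0.17, Adam9 0.10, Adamts1 -0.25, Adamts10 -0.073, Adamts5 0.012, Adamts7 -0.29, Mmp11 -0.15, Mmp14 0.15 and 0.17, Mmp2 -0.084, Mmp23 -0.31 and -0.38, Timp2 0.13, 0.18, 0.17 and 0.18, and Timp3 -0.075. The log2 fold change of Timp1 kept its sign. Each direction given here rests on the titles. By the titles, Rhox5 was lower in SCARKO in each of the 5 pairs, with log2 differences from -4.83 to -2.77. In pair 5, where title and description name the same genotype, its log2 difference was -4.45.

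Pairs mattered for the calls: without the block, those of Adam9, Adam10, Mmp14 and 2 of 4 Timp2 probe sets ended, and no other member's call changed. The log2 fold change of Adamts7, which lies near the dim limit, was 0.33, and 0.17 with 16 added before log2. It was 0.10 without pair 2, the pair with the largest difference (1.22 on the log2 scale).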
